A study of Caenorhabditis elegans with 4 samples.

Results

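The genes described here belong to families that serve signal transduction in chemosensory cilia of *Caenorhabditis elegans*, measured in embryos with and without a functional *daf-19* gene. The families also hold members known from other roles. They were taken by name from the array annotation, as probe sets naming 1 gene whose symbol begins with *gpa-* (G protein alpha subunits) or *gcy-* (guanylyl cyclases), or is *tax-2*, *tax-4*, *osm-9*, *ocr-2*, *odr-1*, *odr-3*, *daf-11*, *tub-1*, *grk-2* or *odr-4*. The rule gave 68 probe sets for 60 genes, of 22548 probe sets on the array that are not controls and of 17138 genes named singly. All 68 were matched to RefSeq genes. The rule itself uses names and no measured value.

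In a ciliated sensory neuron of the worm, a receptor in the ciliary membrane acts on a G protein, the G protein changes the activity of guanylyl cyclases, and cyclic GMP opens the TAX-2/TAX-4 channel, while other ciliated neurons signal through the TRPV channels OSM-9 and OCR-2. Many of these proteins lie in the cilium itself, whose structural genes are targets of the RFX transcription factor DAF-19 through a promoter element called the X-box. Most of the genes are known from 1 or a few pairs of head neurons, so that their RNA is a small part of that of a whole embryo.

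RNA came from embryos released by hypochlorite from gravid adults grown on solid media, and 5 micrograms of total RNA were labelled for each Affymetrix *C. elegans* genome array. *daf-19(-)* stands for 2 arrays of embryos that carry both *daf-19(m86)* and *daf-12(sa204)*, and *daf-19(+)* for 2 arrays of embryos that carry *daf-12(sa204)* and wild-type *daf-19*. All 4 samples therefore carry *daf-12(sa204)*, a mutation that suppresses the constitutive dauer formation of *daf-19(m86)*, and none of the 4 has wild-type *daf-12*. A supplementary table of the study heads the same arrays with the genotypes exchanged, and each array equals the column of the other genotype in 1998 of 1998 rows compared. Which of these namings is right could not be told from the sources, so "the *daf-19(-)* arrays" means the arrays so labelled, ratios are *daf-19(-)* over *daf-19(+)*, and "higher" means higher on the arrays labelled *daf-19(-)*. This direction is opposite to the one the study draws from these arrays.

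Signals are in the linear units of the Affymetrix GCOS software, with each array scaled to a target of 500. Median signals over all probe sets were 136.2 and 144.4 on the *daf-19(-)* arrays and 106 and 126.8 on the *daf-19(+)* arrays, lowest on *daf-19(+)* replicate 1, and between 12084 and 13454 probe sets reached 80. The brighter probe set of *daf-19*, the mutated gene, read 2493.4 and 2365.2 under the *daf-19(-)* label and 767.5 and 856.8 under the *daf-19(+)* label. It was thus 2.99-fold higher where the label names the mutant (log2 fold change 1.56 ± 0.19 (SE), limma adjusted p = 0.00166), which goes against the label if *m86* lowers the transcript, and the effect of *m86* on the transcript was not tested. The 23 ciliary structure genes set as markers had summed signals of 4745 and 5506 on the *daf-19(-)* arrays against 491 and 884. A floor on signal left 22 of them to test, and 20 of the 22 passed it through the *daf-19(-)* arrays alone. In a test these 20 therefore had to differ. The sums cover all 23 genes without the floor and are given as a description.

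Most of the chemosensory genes were dim. With a floor of 80 on at least 2 of the 4 arrays, 18 of the 68 probe sets (26.5%) were bright enough to test, for 16 of the 60 genes, against 58.1% of all probe sets. Of the 68, 7 reached 80 on all 4 arrays, 7 on 3, 4 on 2, 14 on 1 and 36 on none. Among the families, 7 of 19 G alpha genes, 4 of 27 receptor guanylyl cyclase genes, 2 of 7 soluble guanylyl cyclase genes and 1 of 4 channel genes were tested, besides *odr-4* and *tub-1*. A probe set that passed the floor through the arrays of 1 label alone had to differ between the labels, and *tub-1* is the only tested one of that kind.

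None of the 18 tested probe sets passed the test. In limma at an adjusted p under 0.05, 0 were higher, where 0.359% of all 13096 tested probe sets were higher, and 0 were lower, where 0.084% were. At an unadjusted p under 0.05, 6 of the 18 were higher (background 11.2%) and 0 lower (background 7.06%). With the replicate number as a block, since the study treats the arrays as a pair of experiments, 3 were higher and 0 lower (background 4.37% and 3.01%). The 3 were *gpa-9*, *tub-1* and 1 probe set of *gcy-28*. *tub-1*, which had to differ, is among both the 6 and the 3, and *gcy-28* is among the 6 with more than 1 probe set. The p-values measure the spread between these arrays only, as nothing in the labels says that replicates came from separate cultures. Those of the block fit take the variance from its trend over all tested probe sets, not from each probe set's own arrays.

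**Figure D1:**
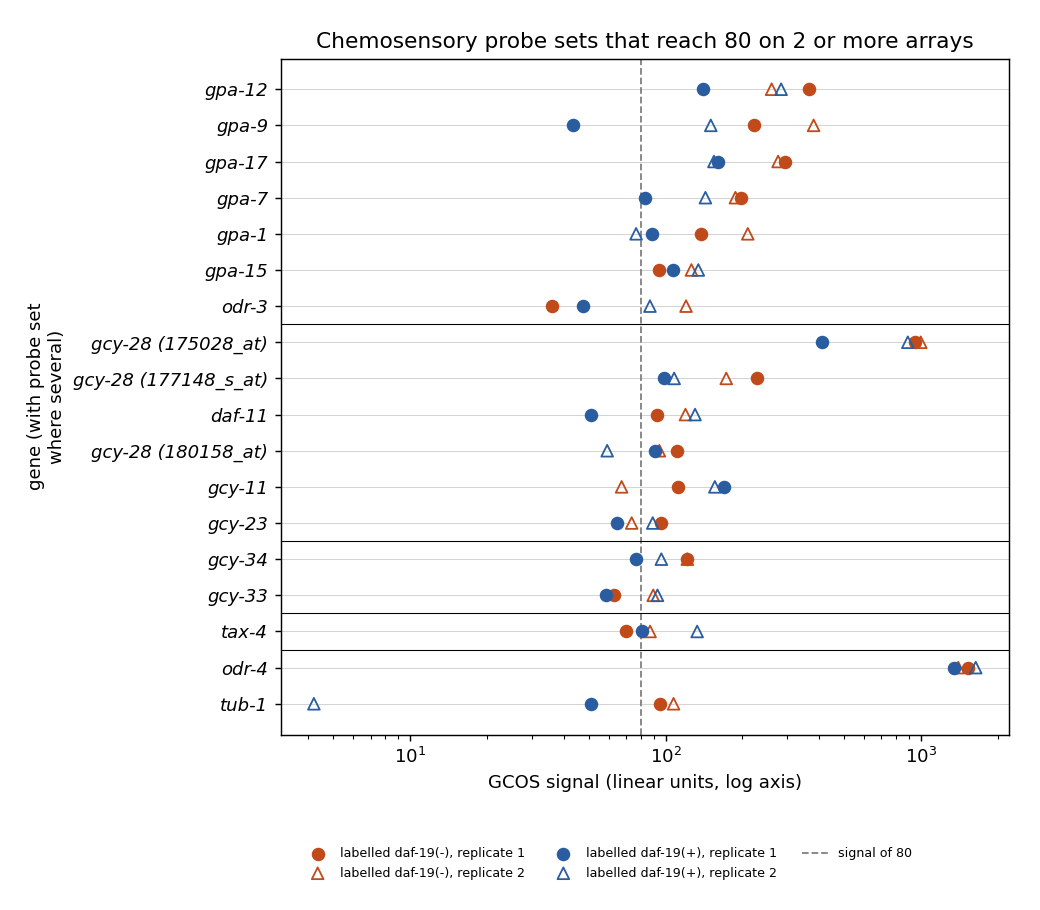
Signal on each of the 4 arrays (log axis, GCOS units) for the 18 probe sets that reach 80, the dashed line, on 2 or more arrays, in blocks of G alpha, receptor cyclase, soluble cyclase, channel and other genes. Orange points are the arrays labelled *daf-19(-)* and blue points those labelled *daf-19(+)*, with circles for replicate 1 and triangles for replicate 2. Both orange points lie to the right of both blue points in 9 probe sets and to the left in 1, *gcy-11*.

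Of the G alpha subunits, which couple receptors to their effectors, *gpa-9* differed most in signal. Its signals were 222.5 and 380.0 on the *daf-19(-)* arrays and 43.6 and 150.4 on the *daf-19(+)* arrays. Both *daf-19(-)* values lay above both *daf-19(+)* values, and *daf-19(+)* replicate 1 was well under the floor. The mean was 301 ± 111 (SD, n = 2) against 97 ± 75.5, a ratio of 3.11 and a log2 fold change of 1.63 (95% confidence interval 0.66 to 2.59, limma adjusted p = 0.122). The adjusted p was 4.9e-04 with the replicate block. The ratio was 6.91 without *daf-19(+)* replicate 2 and 2 without *daf-19(+)* replicate 1. *gpa-9* was thus a gene whose call depended on which fit was used and its ratio on which arrays were used, while its direction did not.

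*gpa-1* and *gpa-17* were also higher on both *daf-19(-)* arrays. *gpa-1* read 137.5 and 209.9 against 88.2 and 76.7, without overlap, a ratio of 2.11 and a log2 fold change of 0.92 ± 0.38 (SE, limma adjusted p = 0.226). *gpa-17* read 292.6 and 275.9 against 160.3 and 154.7. This was the tightest of the G alpha differences, with means of 284 ± 11.8 and 158 ± 3.96 (SD, n = 2), a ratio of 1.8 and a log2 fold change of 0.79 ± 0.29 (SE, limma adjusted p = 0.195). For both genes the 95% interval of the log2 fold change lay above 0, from 0.11 to 1.73 for *gpa-1* and from 0.16 to 1.42 for *gpa-17*, and neither was called.

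In *gpa-7* and *gpa-12* the difference was smaller and rested more on *daf-19(+)* replicate 1. *gpa-7* read 197.3 and 187.8 against 82.9 and 143.3, a ratio of 1.7 without overlap, with a log2 fold change of 0.73 (95% interval -0.04 to 1.5, limma adjusted p = 0.292). *gpa-12*, the worm's member of the G12 class, read 364.0 and 260.3 against 140.8 and 283.5, and the labels overlapped. Its ratio of 1.47 (limma adjusted p = 0.37) became 1.1 without *daf-19(+)* replicate 1.

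The remaining tested subunits showed no separation between the labels. *odr-3* encodes the main G alpha subunit of odour sensing in the AWA and AWC neurons and of osmotic avoidance in ASH. It read 35.9 and 120.3 against 47.4 and 86.9, so that both replicates numbered 1 were below the floor and both numbered 2 above it. Its log2 fold change was 0.06 with an interval of -1.11 to 1.22 (limma adjusted p = 0.968). *gpa-15* read 94.4 and 126.3 against 106.9 and 134.4, a ratio of 0.915 with interleaved values (log2 fold change -0.12, interval -0.93 to 0.69, limma adjusted p = 0.897). Both intervals are wide on either side of 0.

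The other 12 G alpha genes, in 13 probe sets, stayed below the floor, at 1 to 106. *gpa-14* came nearest to it, at 77.3 and 89.9 against 60.2 and 44.4, without overlap. *gpa-16*, a subunit with a known part in orienting the spindle of the early embryo, read 50.6 and 54.7 against 106.0 and 19, so that its values spread most within *daf-19(+)*. *gpa-2* and *gpa-3*, known from the response to dauer pheromone, did not exceed 50.8 and 43.3 on any array. Of the 13 dim probe sets, 2 were higher without overlap (*gpa-3* and *gpa-14*), 2 lower (*gpa-5* and *gpa-6*), and 9 overlapped, beside 21.9% higher and 12% lower over all dim probe sets on the array.

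Receptor guanylyl cyclases are membrane proteins that make cyclic GMP, and many are known from single neuron types. The brightest probe set of *gcy-28*, a cyclase known from many neurons, read 947.2 and 998.5 on the *daf-19(-)* arrays and 408.3 and 888.5 on the *daf-19(+)* arrays. The labels did not overlap, and most of the difference lay in *daf-19(+)* replicate 1. The means were 973 ± 36.3 and 648 ± 340 (SD, n = 2), a ratio of 1.5 and a log2 fold change of 0.67 ± 0.30 (SE, limma adjusted p = 0.252, and 0.0463 with the replicate block). Without *daf-19(+)* replicate 2 the ratio was 2.38, and without *daf-19(+)* replicate 1 it was 1.09.

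*gcy-28* was measured by 3 probe sets, and none of them overlapped between the labels. The second read 228.3 and 172.9 against 98.7 and 108.1, a ratio of 1.94 (log2 fold change 0.85 ± 0.34 (SE), limma adjusted p = 0.221). The third read 110.6 and 94.6 against 91.0 and 59.1, a ratio of 1.37 (limma adjusted p = 0.633). They share a gene and the same 4 RNA samples and are not separate evidence, but the second did not have the gap between the *daf-19(+)* replicates that the first had.

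*gcy-11* was the only tested probe set with both *daf-19(-)* values below both *daf-19(+)* values. It read 112.1 and 67.3 against 169.9 and 156.0. The means were 89.7 ± 31.7 and 163 ± 9.83 (SD, n = 2), a ratio of 0.55 and a log2 fold change of -0.79 (95% interval -1.61 to 0.02, limma adjusted p = 0.284). Its highest signal was on *daf-19(+)* replicate 1, the array with the lowest median signal. Leaving out each array in turn gave ratios between 0.413 and 0.688.

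*daf-11* and *gcy-23* overlapped between the labels. *daf-11*, a cyclase needed for chemotaxis and for the response to dauer pheromone, read 92.4 and 119.7 against 51.1 and 130.5 (log2 fold change 0.29, interval -0.69 to 1.27, limma adjusted p = 0.762). A second, dim *daf-11* probe set read 20.5 and 39.9 against 26.2 and 25.6. *gcy-23*, 1 of 3 cyclases of the thermosensory AFD neurons, read 95.9 and 73.7 against 64.8 and 89.1 (log2 fold change 0.12, interval -0.81 to 1.05, limma adjusted p = 0.909). The other AFD cyclases were dim, *gcy-8* at 56.7 and 38.9 against 45.6 and 89.9, and *gcy-18* at 47.2 and 67.9 against 62.2 and 58.8, and none of the 3 separated the labels.

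The other 23 receptor cyclase genes lay below the floor, and their 26 dim probe sets, including the second one of *daf-11*, read 1.4 to 142.5. Some were at the foot of the scale, and *gcy-1* read between 1.4 and 3.4 on all 4 arrays. *odr-1*, the partner of *daf-11* in AWC odour sensing, read 21.9 and 69.9 against 39.4 and 5.0. Of the 6 cyclases known from the ASE taste neurons (*gcy-4*, *gcy-5*, *gcy-6*, *gcy-7*, *gcy-14* and *gcy-22*), 1 was higher without overlap, *gcy-7* at 14.9 and 18 against 7.9 and 4.3, and 0 were lower, beside the same 21.9% and 12%. *gcy-22*, an ASER cyclase, passed 80 on *daf-19(+)* replicate 2 alone, with 79.6 and 61.0 against 66.9 and 142.5.

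Within this dim group, 6 probe sets were higher without overlap, 2 lower, and 18 overlapped, shares close to the 21.9% and 12% of all dim probe sets. *gcy-19* was the brightest of the higher ones, at 79.1 and 131.0 against 50.4 and 68.5. The lower ones were *gcy-13*, at 4.4 and 7.0 against 39.0 and 58.5, and *gcy-15*, at 8.5 and 42.6 against 65.5 and 62.5. After quantile normalization these counts were 4 higher and 6 lower (15.6% and 17.7% over all dim probe sets), so that the dim receptor cyclases had no direction common to both scalings. The 2 probe sets of *gcy-29* disagreed. One read 37.5 and 42.6 against 1.6 and 4.3, and the other 4.2 and 82.9 against 3.6 and 66.6, where the replicates numbered 2 were high under both labels.

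Soluble guanylyl cyclases lack a receptor domain, and several act in oxygen sensing in the URX, AQR, PQR and BAG neurons. *gcy-34* was bright enough to test and read 121.8 and 121.7 against 76.8 and 96.3. The labels did not overlap, and the difference was a ratio of 1.41 (log2 fold change 0.43, interval -0.40 to 1.26, limma adjusted p = 0.57). *gcy-33*, a BAG cyclase, read 62.6 and 89.5 against 58.5 and 93.0, with a ratio of 1.00 (interval of the log2 fold change -0.96 to 0.99, limma adjusted p = 0.99), and its other probe set, at 70.3 and 55.6 against 60.5 and 67.0, overlapped as well.

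All of the 5 other soluble cyclase genes were dim, and in each both *daf-19(-)* signals exceeded both *daf-19(+)* signals. *gcy-32* read 57.2 and 81.5 against 17.3 and 3.9. *gcy-35*, whose product binds oxygen, read 57.7 and 64.2 against 4.1 and 26.0, and *gcy-36*, with which it acts, read 78 and 89.5 against 53.7 and 65.7. *gcy-31* read 70.2 and 94.4 against 33.9 and 36, with almost equal *daf-19(+)* values. *gcy-37* read 74.7 and 98.3 against 64.3 and 69.8, the narrowest gap of the 5.

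With *gcy-34*, 6 of the 7 soluble cyclase genes were thus higher without overlap and 0 lower, as the plot of the soluble cyclase signals shows. Over all probe sets below the floor, 21.9% were higher without overlap and 12% lower, and over the tested ones 29.7% and 21.6%. After quantile normalization *gcy-37* overlapped (73.2 and 84.3 against 79.6 and 70.6), which left 5 of 8 soluble cyclase probe sets higher and 0 lower, where 15.6% of all dim and 25.7% of all tested probe sets were higher and 17.7% and 24.9% lower. In a limma fit without the floor none passed, with adjusted p-values of 0.491 for *gcy-31*, 0.327 for *gcy-32*, 0.376 for *gcy-35*, 0.771 for *gcy-36* and 0.838 for *gcy-37*. The 7 genes were read from the same 4 samples, and signals below the floor have little precision.

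**Figure D2:**
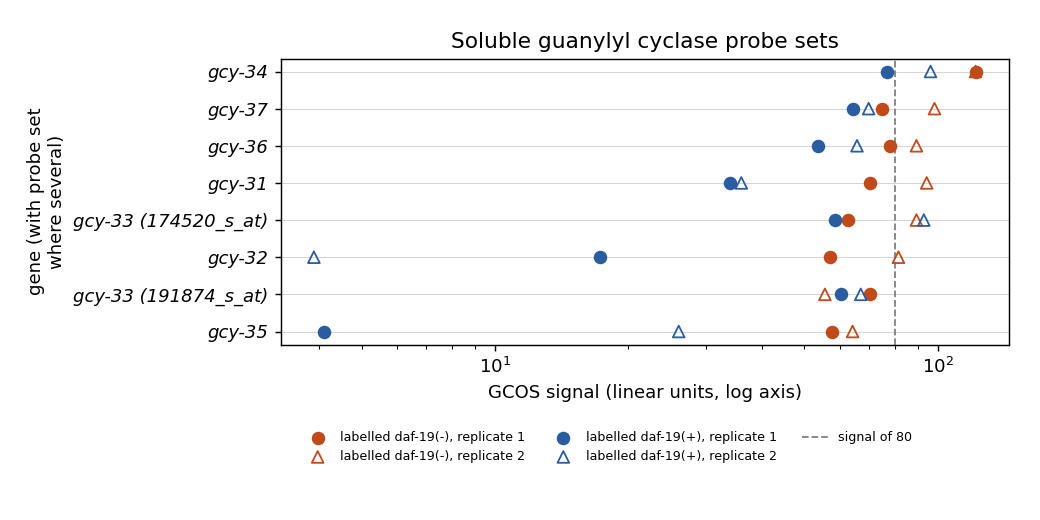
Signal on each of the 4 arrays (log axis, GCOS units) for the 8 probe sets of the 7 soluble guanylyl cyclase genes, with the floor of 80 as a dashed line. Orange points are the arrays labelled *daf-19(-)*, blue points those labelled *daf-19(+)*, circles replicate 1 and triangles replicate 2. The orange points lie to the right of the blue points in 6 probe sets and are mixed with them in both of *gcy-33*.

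Of the channels, which carry the receptor current, *tax-4* was the only one tested. The *tax-4* probe set above the floor read 69.9 and 87.0 against 81.1 and 133.0. The labels overlapped, and the log2 fold change was -0.35 with an interval of -1.26 to 0.55 (limma adjusted p = 0.675). A second, dim *tax-4* probe set read 29.5 and 54.8 against 68.0 and 113.3, a ratio of 0.465, with both *daf-19(-)* values below both *daf-19(+)* values. Both probe sets thus read lower in the mean, on the side opposite to most G alpha and soluble cyclase probe sets, and both had their highest value on *daf-19(+)* replicate 2.

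The other channel genes stayed under the floor on every array. *tax-2*, the partner subunit of *tax-4*, read 20.8 and 5.5 against 3.1 and 15.9. *osm-9* read 62.5 and 4.5 against 2.7 and 40.7, and its partner *ocr-2* read 34.6 and 10.7 against 49.4 and 34.4. In these 3 genes the replicates of a label differed by as much as the labels, and no difference was detectable at this signal.

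*odr-4*, a membrane protein that brings odorant receptors to the cilium, lay far above the floor on every array. It read 1532.4 and 1399.6 against 1348.1 and 1638.5, with a ratio of 0.982. Its interval, from -0.45 to 0.41 on the log2 scale, was the narrowest of the 18 (limma adjusted p = 0.968).

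*tub-1*, the worm's Tubby protein, which lies in sensory cilia and has a part in fat storage, read 95.5 and 107.5 against 51.3 and 4.2. The labels could not overlap, as *tub-1* passed the floor through the *daf-19(-)* arrays alone. Its *daf-19(+)* values, both under the floor, were far apart. The means were 102 ± 8.49 and 27.8 ± 33.3 (SD, n = 2), a ratio of 3.66 and a log2 fold change of 1.67 (95% interval 0.37 to 2.97, limma adjusted p = 0.19, and 0.0439 with the replicate block). The ratio was 1.98 without *daf-19(+)* replicate 2 and 24.2 without *daf-19(+)* replicate 1, so its size moved with 1 reading near the bottom of the scale. *grk-2*, a G protein coupled receptor kinase needed for chemosensation, was dim throughout, at 31 and 39.1 against 17.4 and 19.3, a ratio of 1.91 without overlap.

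**Figure D3:**
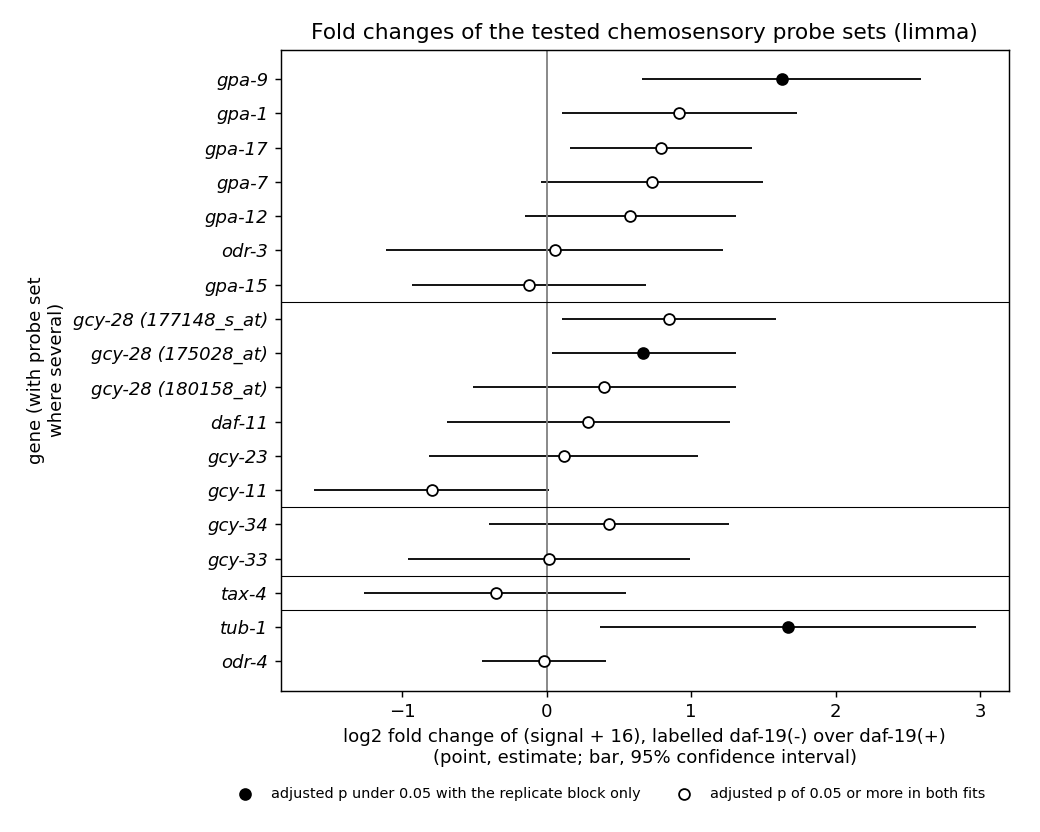
Log2 fold change of signal + 16 (arrays labelled *daf-19(-)* over *daf-19(+)*, points) with its 95% confidence interval from limma (bars) for the 18 tested probe sets, in the blocks of the signal plot. Filled points are the 3 that pass an adjusted p of 0.05 with the replicate block only. None passes in the fit without the block, and the estimates run from -0.79 for *gcy-11* to 1.67 for *tub-1*.

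Across the families, more of the tested genes read higher than lower. With each gene given by its brightest probe set, 12 of the 16 tested genes had a log2 fold change above 0 and 4 below, with a median of 0.36, beside a median of 0.06 over all 9728 tested genes (5397 above 0 and 4331 below). At a ratio of 2 in mean signal, 3 of the 16 were higher, *gpa-1*, *gpa-9* and *tub-1* (background 3.29%), and 0 lower (background 1.05%). In this count and in the next, *tub-1* had to differ, as it passed the floor through the *daf-19(-)* arrays alone. Of the 18 tested probe sets 9 were higher without overlap (background 29.7%) and 1 lower (background 21.6%), while of the 50 dim ones 14 were higher (background 21.9%), 5 lower (background 12%) and 31 overlapped. The 9 include all 3 probe sets of *gcy-28*, which share a gene and are not separate evidence. After quantile normalization 8 of the tested ones were higher (background 25.7%) and 3 lower (24.9%), and of the dim ones 11 were higher (background 15.6%) and 9 lower (17.7%).

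The size of this shift depended on which *daf-19(+)* array was left out. *daf-19(+)* replicate 1 gave the lowest value in 10 of the 18 tested probe sets (55.6%), compared with 40.8% of all tested probe sets. Without it the median of the 16 genes was 0.02, and without *daf-19(+)* replicate 2 it was 0.67. Leaving out either *daf-19(-)* array gave 0.44 and 0.36. Quantile normalization, which gives all arrays the same distribution of signals, gave 0.11, with the median of all genes at 0.00.

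The family medians were each taken in the same settings. The 7 tested G alpha genes had a median of 0.73, which stayed between 0.39 and 0.84 with 1 array left out and was 0.50 after quantile normalization. The median of the 4 receptor cyclase genes, 0.21, was -0.17 without *daf-19(+)* replicate 1 and -0.04 after quantile normalization. That of the 2 soluble cyclase genes, 0.22, was 0.02 and -0.02 in the same settings. Differences between the families were not tested.

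**Figure D4:**
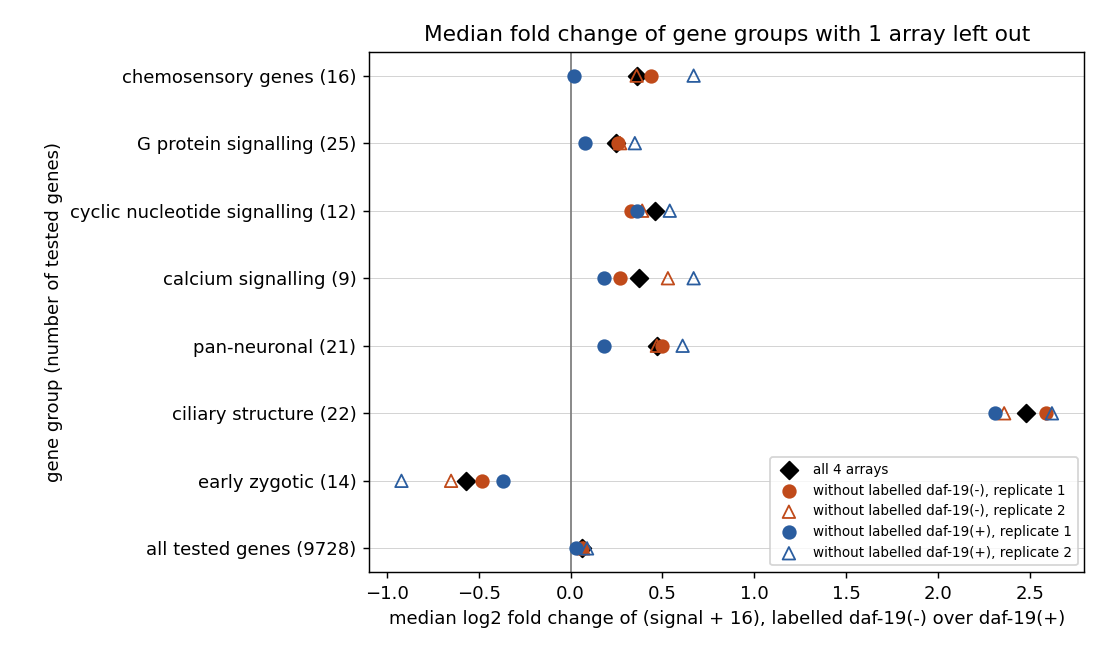
Median log2 fold change of signal + 16 (labelled *daf-19(-)* over *daf-19(+)*) for gene groups, with the number of tested genes in brackets, from all 4 arrays (diamonds) and with 1 array left out (circles and triangles, by the array left out). The chemosensory genes move from 0.02 to 0.67 with the *daf-19(+)* array left out, and of the 22 ciliary structure genes shown, 20 passed the floor through the *daf-19(-)* arrays alone.

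The genes that work with these proteins were described from lists drawn up for the pathway. The G protein signalling list holds other G alpha subunits and partners of G alpha. Of its genes, 25 of 27 on the array were tested, and 0 were called. Their median log2 fold change was 0.25, with 18 above 0 and 7 below, and with the replicate block 3 were higher (background 4.37%) and 0 lower. Without *daf-19(+)* replicate 1 the median was 0.08. *gsa-1*, the stimulatory G alpha subunit, read 954.8 and 901.7 against 655.1 and 243.7 (log2 fold change 1.18, limma adjusted p = 0.131, and 1.5e-04 with the block). *rgs-6*, a regulator of G protein signalling, read 419.5 and 287.6 against 131.3 and 202.8 (1.02, limma adjusted p = 0.146, and 0.0205 with the block). *ric-8*, an exchange factor for G alpha, read 444.4 and 1752.0 against 449.2 and 580.0 (0.78, limma adjusted p = 0.347, and 0.0222 with the block). *ric-8* overlapped between the labels, and a single array carried its mean. *rgs-3*, at 0.87, and the diacylglycerol kinase *dgk-1*, at 0.83, came next by log2 fold change and passed in neither fit.

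All 12 tested genes of the cyclic nucleotide list, of 15 on the array, had log2 fold changes above 0. The list also holds adenylyl cyclases and is not limited to genes downstream of the guanylyl cyclases. Its median was 0.46 (0.33 to 0.54 with 1 array left out), and 0 were called in either fit. *pef-1*, a protein phosphatase with EF hands, read 178.5 and 186.8 against 72.8 and 87.6 (log2 fold change 1.05, limma adjusted p = 0.176). The phosphodiesterases *pde-6* (0.83) and *pde-1* (0.61) and the adenylyl cyclase *acy-1* (0.68) followed, of which *pde-6* passed the floor through the *daf-19(-)* arrays alone and so had to differ. Of 11 other cyclic nucleotide gated and TRP channels on the array 5 were tested, all 5 above 0 (median 0.50, and 0.26 without *daf-19(+)* replicate 1 or 0.85 without *daf-19(+)* replicate 2) and 0 called in either fit, with *trpa-1* at 0.86, *trp-1* at 0.57, *cng-1* at 0.50 and *trp-2* at 0.49. All 9 calcium signalling genes were tested and above 0 (median 0.37, and 0.18 or 0.67 in the same settings), led by the protein kinases C *pkc-2* (0.76) and *pkc-1* (0.67), the calcium sensor *ncs-1* (0.57) and the CaM kinase *unc-43* (0.43), again with 0 called in either fit.

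Genes for the traffic of receptors and other proteins to the cilium had a median near 0. Of 6 tested genes, of 8 on the array, 4 were above 0 and 2 below, with a median of 0.08 and 0 called in either fit. The receptors on this list, *odr-10* and *str-2*, stayed under 80 on every array and were not tested. The median was -0.08 without *daf-19(+)* replicate 1 and -0.06 without *daf-19(+)* replicate 2. *rab-8*, a small GTPase of ciliary membrane traffic, read 1394.6 and 1202.6 against 1910.4 and 1518.5 (log2 fold change -0.39, limma adjusted p = 0.319), and the lipid-binding carrier *unc-119*, also on the pan-neuronal list, had a log2 fold change of -0.19. *daf-25*, needed for guanylyl cyclases to reach the cilium, was at 0.15 and the clathrin adaptor subunit *dpy-23* at 0.14.

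Of the transcription factors that specify sensory neurons, 17 of 21 on the array were tested, with a median log2 fold change of 0.36, 13 above 0 and 4 below. None was called, and with the replicate block 2 were higher (background 4.37%) and 0 lower. *ttx-1*, the homeodomain factor of the AFD neurons, read 780.9 and 724.7 against 492.9 and 394.1 (log2 fold change 0.75, limma adjusted p = 0.144, and 0.0348 with the block). *egl-13*, a SOX factor of the BAG neurons, read 655.9 and 890.0 against 363.6 and 591.4 (0.70, limma adjusted p = 0.204, and 0.0484 with the block). The interneuron factor *ttx-3* and the EBF-type factor *unc-3*, both at 0.57, passed in neither fit.

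Marker genes of other cells also had medians above 0, with 0 called in the fit without the block. With the replicate block the calls were 2 higher of 21 pan-neuronal, 2 of 14 muscle, 1 of 6 glia and 1 of 10 hypodermis genes, and 1 higher and 1 lower of 11 intestine genes (background 4.37% higher and 3.01% lower). Of 24 pan-neuronal genes 21 were tested, 20 of them above 0, with a median log2 fold change of 0.47 and summed signals of 26881 and 24893 against 18170 and 22557. Their median was 0.18 without *daf-19(+)* replicate 1. Muscle genes (14 of 14 tested) had a median of 0.40, intestine genes (11 of 12) 0.43, glia genes (6 of 9 on the array) 0.29 and hypodermis genes (10 of 11) 0.20. Of the tested intestine genes, 1 passed the floor through the *daf-19(-)* arrays alone and so had to differ. Without *daf-19(+)* replicate 1 these medians were 0.13 for muscle, 0.28 for intestine, 0.16 for glia and -0.05 for hypodermis, and without *daf-19(+)* replicate 2 they were 0.67, 0.71, 0.52 and 0.29. In bulk embryos, fewer cells of a type and less RNA in each cell cannot be told apart.

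Genes of early embryos had log2 fold changes in the other direction on the median, with 0 called in the fit without the block. With the block 1 early zygotic gene was higher and 2 were lower, and 1 germline and maternal gene was lower (background 4.37% higher and 3.01% lower). Of the tested early zygotic genes, 1 passed the floor through the *daf-19(+)* arrays alone and so had to differ. Of 19 early zygotic genes on the array 14 were tested, 10 of them below 0, with a median of -0.57 and summed signals of 10392 and 10168 against 15104 and 10189. That median was -0.37 without *daf-19(+)* replicate 1 and -0.92 without *daf-19(+)* replicate 2. Of 21 germline and maternal genes 19 were below 0, with a median of -0.19 (-0.10 and -0.41 in the same settings). *daf-19(+)* replicate 1, with the highest sum of early zygotic signals and the lowest of pan-neuronal, muscle and intestine signals, was also the array that was lowest for most tested chemosensory genes. The part of this difference between the samples in the values of the chemosensory genes was not tested. Yolk gene signals, a sign of adult tissue, summed to 248 and 169 against 139 and 1023, with the high value on *daf-19(+)* replicate 2.

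Some values may mix related genes. The probe sets of *odr-4*, *tub-1*, *gcy-11*, *gcy-18*, *gcy-35* and *odr-1*, both of *gcy-33*, and 1 each of *gcy-28*, *gcy-29*, *daf-11* and *tax-4* carry a suffix for probes that can match more than 1 transcript. *gcy-1* and *gcy-3* are neighbours in RefSeq. A further probe set names both *gcy-21* and *gcy-15* and was left out of the 68. It read 26.8 and 66.1 against 71.4 and 30.8.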

How the data were processed

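The authors scanned the arrays and used GCOS, with no version stated in the sources, to scale each chip over all probe sets to a target of 500. The deposited values are these signals, a linear intensity scale. Detection calls were not used here. From them, 77 of 22625 probe sets were left out as controls. Of the other 22548, the annotation names 1 gene for 20766 and several for 887, and 895 are unnamed here. Probe sets at 80 or more on 2 of 4 arrays (13096) were tested with limma 3.58.1 in R 4.3.3 on log2(signal + 16), by lmFit and by eBayes with a trend in the variance, with two-sided p-values adjusted by Benjamini-Hochberg over all of them. A log2 fold change on this scale understates the change of dim genes, and ratios of mean signals use no offset. SD is over n = 2 arrays for each label, which limits the precision. SE and confidence intervals are those of limma, with a variance drawn toward its trend over all tested probe sets. A gene was given by its brightest probe set.

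The members, lists and tests were chosen with earlier results of these data known. Every gene with a tested probe set is named. Dim members are given in groups, and of each pathway list those named are the 4 genes with the largest absolute log2 fold change and any that pass. The replicate numbers were taken to pair the arrays, since a supplementary table of the study computes a fold within each numbered experiment. Differences between replicates 1 and 2 correlated at 0.12 (Pearson) between the labels across 13096 probe sets. Alternatives were other floors, offsets and normalization, no variance trend, the replicate block, no probe sets that may share probes, the mean of a gene's probe sets, and each array left out. Columns of fold changes in the study's table were not used. 0 columns of signal were left unused.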

Additional observations from a re-analysis of the deposited data

How the results depend on the processing

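No tested chemosensory probe set was called higher in limma under any filter, offset or scaling tried or without the variance trend. Among fits of all 4 arrays the exception was the replicate block, which pairs the arrays by number, where 3 were called higher (background 4.37%). Fits with 1 array left out leave 1 array under a label and are described by ratios and fold changes. The block fit found no scatter of variances about the trend, and its p-values use the trend only. The block changed no other call among the 18 and called none lower. The count of genes 2-fold higher, 3 of 16, was 14 of 60 with no filter (background 2257 of 17138 genes). It was 0 of 8 with 80 on both *daf-19(+)* arrays (background 92 of 8699) and 1 of 5 with a floor of 200 (background 110 of 7625). That of genes 2-fold lower, 0, was 2 of 60 with no filter (background 1299 of 17138) and 1 after quantile normalization (background 174 of 9728). Both counts also changed with 1 array left out. The median log2 fold change of 0.36 was 0.67 over the 5 genes left by a floor of 200 and 0.02 to 0.67 with 1 array left out. For these differences the cause was not tested, beyond the changed set of genes in the filters.

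Of 207 values of single probe sets under alternatives, 187 kept sign and side of the threshold, 5 passed it and 15 changed sign. After quantile normalization the log2 fold change was -0.14 for *gcy-23*, -0.21 for *gcy-33*, -0.12 for *odr-3* and 0.01 for *odr-4*. With 1 array left out it ran from -0.27 to 0.85 for *daf-11*, -0.07 to 0.31 for *gcy-23*, -0.26 to 0.29 for *gcy-33*, -0.30 to 0.07 for *gpa-15*, -0.64 to 0.75 for *odr-3* and -0.16 to 0.12 for *odr-4*. All of these are genes whose fold change was near 0 or whose labels overlapped. A planned search of promoters for X-boxes was not run, as no promoter sequences were used here. Signal limits what can be said of 44 of the 60 genes, which did not reach 80 on 2 arrays.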
